A study of Mus musculus with 6 samples.

Results

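Transcripts of 10 genes of the smooth muscle contractile apparatus were examined in the whole brain of E18.5 mouse embryos, near the end of gestation, with 3 Affymetrix arrays of Foxf2 mutants and 3 of wild type. The genes were Acta2, Tagln, Myh11, Cnn1, Myl9, Tpm2, Mylk, Cald1, Smtn and Lmod1, and every probe set that the platform annotation gave to exactly 1 of them was taken. This yielded 22 of the 45037 probe sets on the array, and 10 of the 18193 genes that had such a probe set. All 6 embryos had a C57/bl6 genetic background. Foxf2, a transcription factor of the forkhead family, is expressed in brain pericytes. The labels call the first group Foxf2 mutant, without naming the allele or its zygosity, and do not say whether each array held the RNA of 1 embryo or of several. The values were MAS5 intensities on a linear scale, scaled by the authors to a common mean.

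Smooth muscle contracts when calcium and calmodulin activate myosin light chain kinase (Mylk), which phosphorylates the regulatory light chain (Myl9) and lets smooth muscle myosin (Myh11) pull on filaments of smooth muscle alpha-actin (Acta2). Beta-tropomyosin (Tpm2), calponin (Cnn1) and caldesmon (Cald1) lie along the actin filament and regulate it, leiomodin (Lmod1) starts new filaments, and transgelin (Tagln) and smoothelin (Smtn) bind them. In the brain these genes mark the muscle coat of arteries and arterioles, while capillary pericytes hold less of this apparatus. Cald1, Myl9, Mylk and Tpm2 are also used by cells that are not smooth muscle.

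Many of these genes are driven by serum response factor, which binds a DNA element of 10 letters called the CArG box. RefSeq promoter windows of assembly GRCm38.p6, from 250 bases before to 50 bases after a gene's start, were found for 8 of the 10 genes, 9 windows in all. Tagln and Myh11 had no window, so their promoters were not searched. Acta2 and Myl9 are shown because theirs were the windows with a CArG box, and Tpm2 because its difference between the groups was the largest among the brightest probe sets. Capitals mark a box, and all sequences run 5′ to 3′ on the gene's strand. The Acta2 window is chr19:34255324-34255623 (minus strand), the Myl9 window chr2:156775214-156775513 (plus strand) and the Tpm2 window chr4:43523505-43523804 (minus strand).
Acta2: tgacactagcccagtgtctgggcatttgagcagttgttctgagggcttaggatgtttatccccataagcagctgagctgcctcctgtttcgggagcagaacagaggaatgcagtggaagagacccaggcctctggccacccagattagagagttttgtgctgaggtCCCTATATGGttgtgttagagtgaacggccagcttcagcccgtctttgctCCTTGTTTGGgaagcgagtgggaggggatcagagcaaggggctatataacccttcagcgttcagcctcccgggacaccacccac
Myl9: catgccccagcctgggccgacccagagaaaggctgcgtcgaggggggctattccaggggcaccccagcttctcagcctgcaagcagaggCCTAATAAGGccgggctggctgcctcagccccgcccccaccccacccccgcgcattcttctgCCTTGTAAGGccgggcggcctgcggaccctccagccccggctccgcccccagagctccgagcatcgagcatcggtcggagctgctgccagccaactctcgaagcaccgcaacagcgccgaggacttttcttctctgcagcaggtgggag
Tpm2: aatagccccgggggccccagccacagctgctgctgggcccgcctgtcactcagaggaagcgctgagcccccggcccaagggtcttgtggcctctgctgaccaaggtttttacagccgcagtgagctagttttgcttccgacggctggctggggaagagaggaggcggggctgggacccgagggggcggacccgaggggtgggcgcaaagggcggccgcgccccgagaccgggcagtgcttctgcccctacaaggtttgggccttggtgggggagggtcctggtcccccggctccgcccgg

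The Acta2 window held 2 boxes, each with 1 of the 6 central letters outside the A or T of the exact box. The Myl9 window held an exact box, CCTAATAAGG, and 1 with a single change, CCTTGTAAGG. An exact box was present in 1.63% of the 32851 RefSeq promoter windows of this length, and a box with at most 1 such change in 9.98%, against 2 of the 9 windows here. The box reads alike on both strands, and a match is a description of these letters only.

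No contractile gene differed between mutant and wild-type brains past an adjusted p of 0.05. Of the 22 probe sets, 12 from 7 genes lay above the intensity filter of about 13.2 and entered the test, and 0 of the 12 rose (0.366% of all tested), 0 fell (0.0222% of all tested) and 12 did not pass (limma with Benjamini-Hochberg adjustment over 27022 probe sets). Over all tested probe sets 0.389% passed, 105 in number, a count that was 0 by limma without mutant array 2 or 3 or wild-type array 1 or 2, 28 without mutant array 1 and 34 without wild-type array 3. In those 4 settings with 0 calls, 2468 to 3237 probe sets had an unadjusted p under 0.05. At an unadjusted p under 0.05, 1 probe set of Tpm2 read higher (7.76% of all tested) and that of Myl9 lower (5.79% of all tested), together 2 of 12 against 13.6%. The median log2 difference, mutant minus wild type, was -0.027 over the 12 probe sets and -0.0065 over all tested. It was 0.054 over the 12 without mutant array 3. Whole-brain RNA does not tell apart fewer cells of a type from less RNA per cell.

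**Figure D1:**
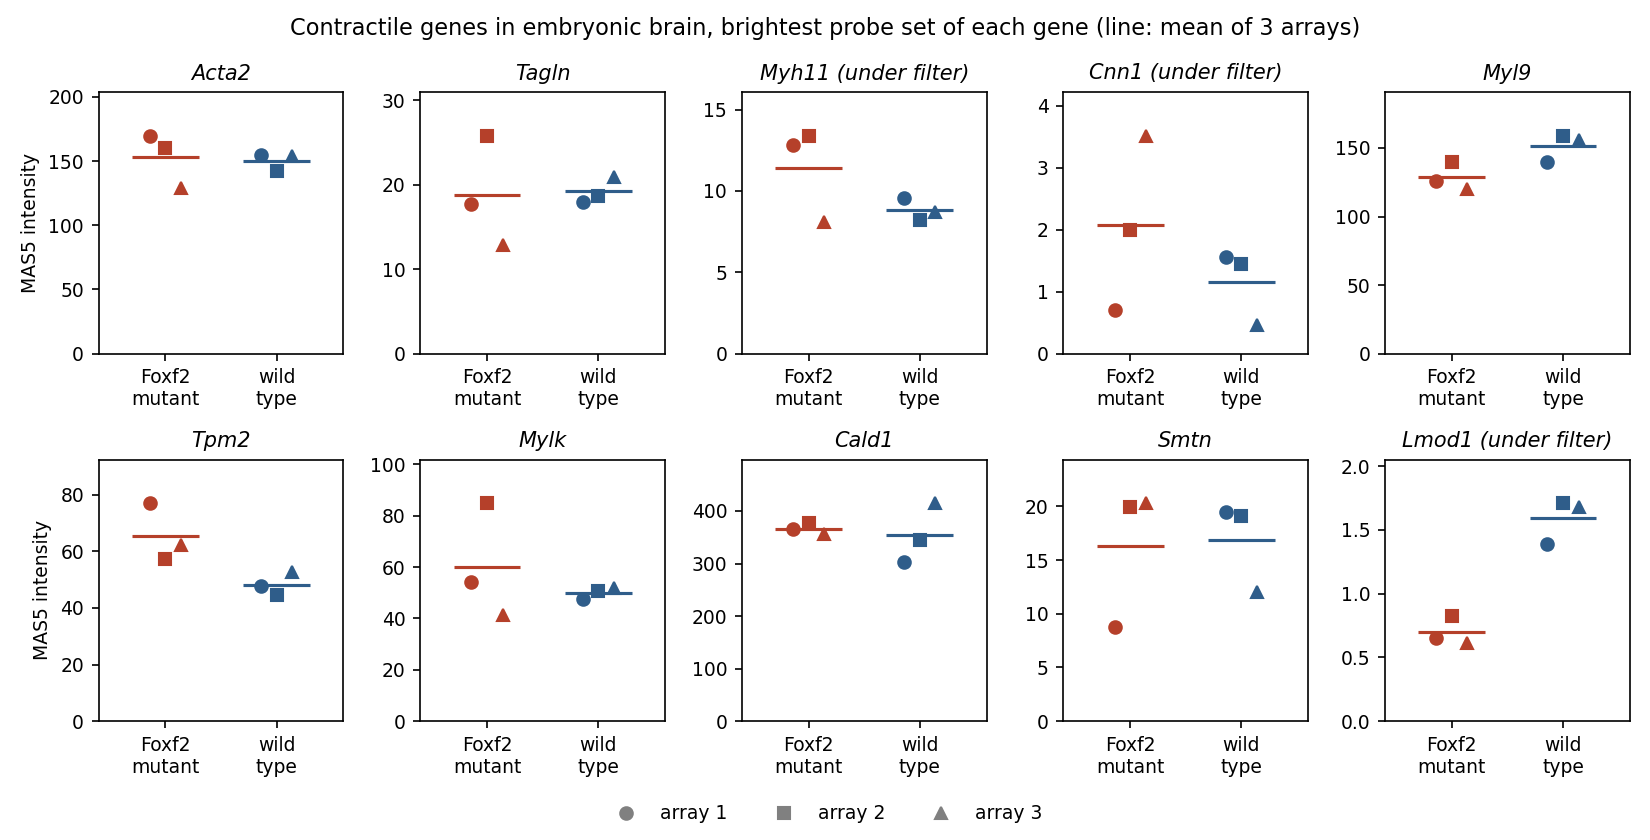
MAS5 intensity of the brightest probe set of each contractile gene in 3 Foxf2 mutant (red, left) and 3 wild-type (blue, right) brains, with the mean of each group as a line and the array number as the symbol; each panel has its own linear axis. Among the genes above the filter, Tpm2 is the one whose groups do not overlap, with 57.4 to 77 in the mutant and 44.4 to 52.6 in wild type.

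Foxf2, the targeted gene, read lower in all 3 mutant arrays on its brighter probe set, with 8.06, 3.31 and 7.57 in the mutant and 18.6, 24.4 and 13.8 in wild type. The probe set lay under the filter, and where it lies relative to the mutation is not given, which limits it as a check of the labels. Brain tissue was marked by 8 neuronal genes, all above the filter, whose summed intensity was 18945 to 19239 in the mutant and 18597 to 18723 in wild type.

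The actin of the smooth muscle filament, Acta2, did not differ past the threshold. Its bright probe set, 1416454_s_at, gave 169.9, 160.0 and 129 in mutant arrays 1, 2 and 3, and 155, 142 and 154 in the wild-type arrays. The mutant values lay on both sides of the wild-type ones, with mutant array 1 the highest and mutant array 3 the lowest of the 6. Group means were 153 ± 21.4 in the mutant and 150.4 ± 7.38 in wild type (SD, n = 3 each), a log2 difference of 0.015 with a 95% interval of -0.22 to 0.25 (limma adjusted p = 0.967). The difference was 0.12 without mutant array 3. The other Acta2 probe sets read 0.649 to 5.55 in the mutant and 0.321 to 4.5 in wild type, near the floor of the array.

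Smooth muscle myosin and its regulation gave no common direction. Myh11, the heavy chain that defines mature smooth muscle, lay under the filter on both of its probe sets. The brighter one read 12.8, 13.4 and 8.07 in the mutant and 9.58, 8.19 and 8.72 in wild type. Mutant arrays 1 and 2 were thus above, and mutant array 3 below, all wild-type arrays. The other probe set read 1.25 to 4.08 in the mutant and 0.726 to 4.71 in wild type. Myl9, the regulatory light chain, gave 126, 139.8 and 120.4 in the mutant and 139.6, 159 and 156 in wild type. Mutant arrays 1 and 3 lay under every wild-type array, and mutant array 2 overlapped wild-type array 1 by a narrow margin. The log2 difference was -0.21 ± 0.091 (SE), with a 95% interval of -0.42 to -0.0065, an unadjusted p of 0.0445 and a limma adjusted p of 0.353.

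Mylk, the kinase that acts on this light chain, was read by 3 probe sets that differed in sign. The brightest, 1425506_at, gave 54, 84.9 and 41.2 in the mutant and 47.4, 50.6 and 51.9 in wild type. Mutant array 2 was the highest of the 6 and mutant array 3 the lowest, while the wild-type arrays stayed close together. Its log2 difference of 0.16 (95% interval -0.27 to 0.59, limma adjusted p = 0.753) was -0.06 without mutant array 2 and 0.35 without mutant array 3. The next probe set, 1425505_at, gave 27.8, 35.2 and 32 in the mutant and 40.7, 34.1 and 41.2 in wild type. These groups overlapped, and the log2 difference was -0.20 (limma adjusted p = 0.538). The third, at 1.7 to 6.05 in the mutant and 1.27 to 10.5 in wild type, was under the filter. The probe sets of Mylk may read different transcripts of the gene, and which ones is not given in the sources used here.

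Tpm2, beta-tropomyosin of the thin filament, was the member with the largest difference by brightest probe set. That probe set, 1419738_a_at, gave 77, 57.4 and 62.2 in the mutant and 47.6, 44.4 and 52.6 in wild type. Every mutant value exceeded every wild-type value. Means were 65.5 ± 10.2 in the mutant and 48.2 ± 4.15 in wild type (SD, n = 3 each), a ratio of 1.36. On the log2 scale with an offset of 16 the difference was 0.34 ± 0.13 (SE), with a 95% interval of 0.056 to 0.62, an unadjusted p of 0.024 and a limma adjusted p of 0.287. Of the 12 tested contractile probe sets, 1 had mutant values all above wild type, where 10.9% of all tested did, and 0 had them all below, where 9.38% did. Groups were apart in either direction in 20.2% of all tested.

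The other Tpm2 probe sets also had means that were higher in the mutant, with different arrays at the top. Probe set 1425028_a_at gave 25.2, 16.3 and 36.8 in the mutant and 11, 18 and 20.5 in wild type, a log2 difference of 0.36 (limma adjusted p = 0.478) with overlapping groups. Without mutant array 3 this difference was 0.18. Probe set 1419739_at, under the filter, gave 11.5, 16.1 and 17.5 in the mutant and 9.49, 11.1 and 10.5 in wild type, without overlap. Such a separation was present in 13% of all probe sets under the filter. Probe set 1449577_x_at, also under the filter and of a type whose probes can match other transcripts, gave 5.11, 5.97 and 55 in the mutant and 6.69, 4.74 and 8 in wild type. It was thus high in mutant array 3 only, and its log2 difference of 0.51 was -0.059 without that array.

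Caldesmon, Cald1, was read by 5 probe sets, 4 of them above the filter, and all had overlapping groups. The brightest, 1424769_s_at, gave 365, 378 and 357 in the mutant and 302, 344 and 415 in wild type. Wild type held both the lowest and the highest of the 6 values, and the log2 difference was 0.061 with a 95% interval of -0.18 to 0.30 (limma adjusted p = 0.842). The other Cald1 probe sets above the filter had log2 differences of -0.13, -0.094 and -0.02, with 98.2 to 148, 89.2 to 95.2 and 27 to 32.5 in the mutant and 114 to 138, 88.5 to 108 and 22.5 to 36.7 in wild type. The remaining one read 1.48 to 6.03 in the mutant and 1.55 to 7.62 in wild type, under the filter. Cnn1, calponin, read 0.704, 2 and 3.52 in the mutant and 1.56, 1.45 and 0.463 in wild type, near the floor in both groups.

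Tagln, an early actin-binding protein of smooth muscle, gave 17.7, 25.8 and 12.8 in the mutant and 18, 18.7 and 20.9 in wild type. Mutant array 2 was the highest of the 6 and mutant array 3 the lowest. Its log2 difference was -0.035 with a 95% interval of -0.39 to 0.33 (limma adjusted p = 0.947), and 0.093 without mutant array 3. Smtn, smoothelin, gave 8.76, 19.9 and 20.3 in the mutant and 19.5, 19.1 and 12 in wild type. The low values fell in mutant array 1 and wild-type array 3, and the log2 difference was -0.037 (95% interval -0.45 to 0.38, limma adjusted p = 0.951). Lmod1, the filament-starting leiomodin, read 0.652, 0.823 and 0.613 in the mutant and 1.39, 1.71 and 1.68 in wild type. These groups did not overlap, but all 6 values lay far under the filter, at a level where MAS5 signals carry little information on amount.

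**Figure D2:**
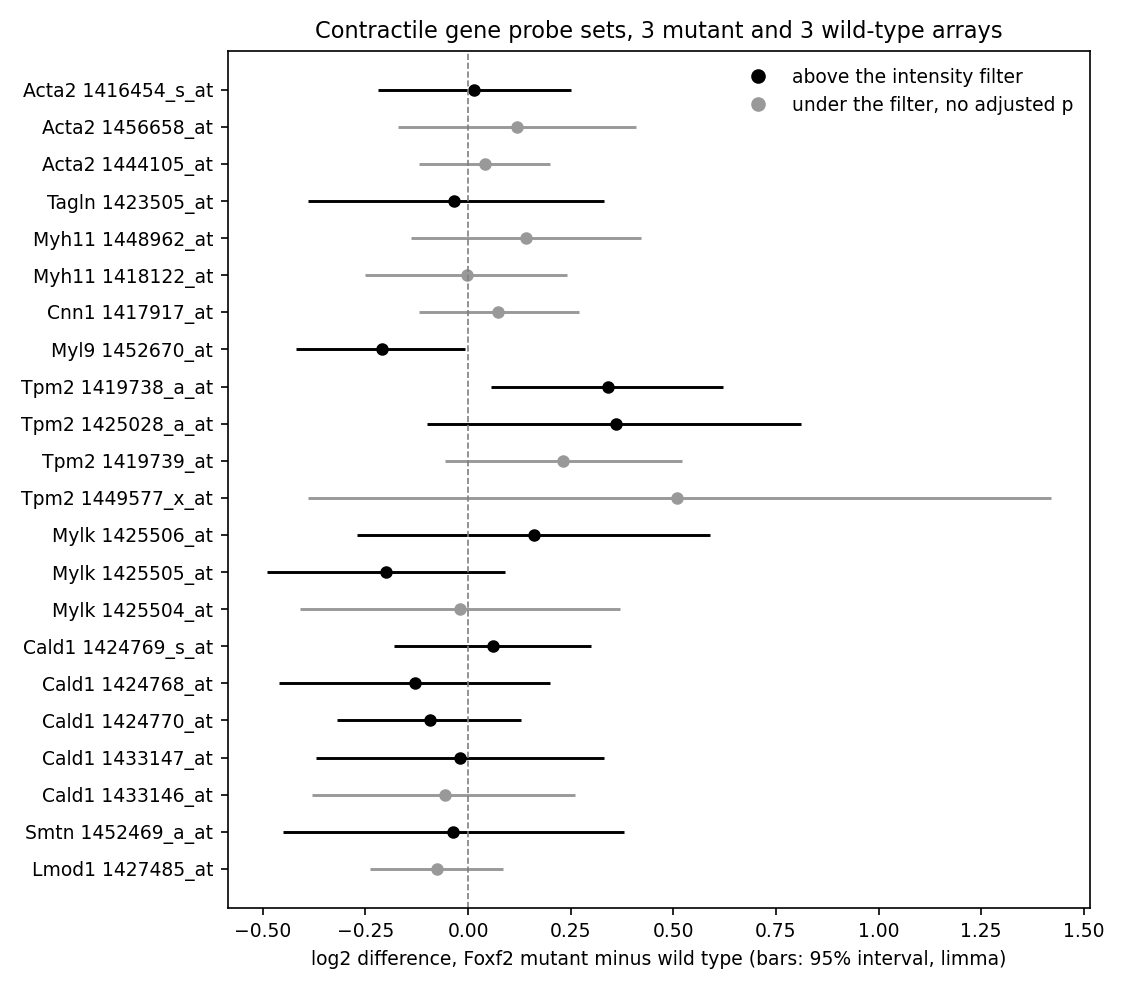
Log2 difference, Foxf2 mutant minus wild type, of the 22 contractile gene probe sets with 95% intervals from limma; black probe sets lay above the intensity filter and grey ones under it. The intervals of the 12 black probe sets lie between -0.49 and 0.81, and those of Tpm2 1419738_a_at and Myl9 are the ones of the 12 that leave out 0.

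The 3 genes under the filter, Myh11, Cnn1 and Lmod1, are among the markers most confined to mature smooth muscle, and all 6 arrays read Cnn1 and Lmod1 under 13.2. Myocd, the coactivator of serum response factor in smooth muscle, also read under the filter, at 0.443 to 1.64 in the mutant and 1.26 to 4.06 in wild type.

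The contractile probe sets above the filter varied more between arrays of the mutant group than of the wild type. Over the 12 tested probe sets the median SD on the log2 scale was 0.18 among mutant arrays and 0.12 among wild-type arrays, and over all tested probe sets 0.13 and 0.12. The mutant SD was the larger in 9 of 12 probe sets (75%), against 55.4% of all tested, and in 5 of the 10 under the filter. By brightest probe set the mutant SD was the larger in 6 of the 7 genes above the filter (85.7%), against 55.2% of all tested genes. The median SDs of the 7 genes were 0.19 and 0.091. A larger mutant SD was not particular to these genes. Also by brightest probe set, it was present in 75% of 12 meningeal and fibroblast genes, with median SDs of 0.27 and 0.13. It was present in 63.6% of 11 pericyte markers, 58.3% of 12 endothelial markers and 37.5% of 8 neuronal genes. By the brightest probe set of each of the 7 genes above the filter, mutant array 3 held the lowest of the 6 values in 4, Acta2, Myl9, Mylk and Tagln, or 57.1%. Over all 12573 tested genes it held the lowest value in 20.6%. Whether above the filter or not, mutant array 3 was also lowest for 5 of 12 pericyte markers and 8 of 22 genes of contractile regulation. It was lowest for 2 of 12 endothelial markers and 0 of 12 meningeal and fibroblast genes. Mutant array 2 held the highest value for Mylk and Tagln. The mean log2 deviation of the 7 genes from their own averages was -0.0016, 0.16 and -0.10 in mutant arrays 1, 2 and 3, and -0.06, -0.025 and 0.021 in the wild-type arrays. This difference in spread was not tested.

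Mutant array 3 held transcripts of striated muscle. Of 25 skeletal muscle genes, it read the highest of the 6 arrays in 23. Their summed intensity was 254, 260.1 and 2824 in mutant arrays 1, 2 and 3, and 246, 239 and 245 in the wild-type arrays. Acta1, skeletal muscle actin, read 75.5, 71.8 and 741 in the mutant and 51.1, 71.4 and 77 in wild type. Myl1, a light chain of fast muscle, read 2.67, 2.21 and 361 in the mutant and 0.488 to 2.97 in wild type. Mylpf, another fast light chain, reached 333 in mutant array 3, Actc1, the cardiac and embryonic muscle actin, 280.0 and Tnnc2, fast troponin C, 278. The muscle regulators Myod1 and Myog stayed under the filter in every array. None of the 9 skeletal muscle genes above the filter passed (0 higher, 0 lower by limma, and 0 at an unadjusted p under 0.05). Of the 9, 4 were under the filter by the mean of the arrays other than mutant array 3, namely Actc1, Myh8, Myl1 and Neb. Over all 25 genes, whether above the filter or not, the median log2 difference was 0.31, and 0.025 without mutant array 3.

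**Figure D3:**
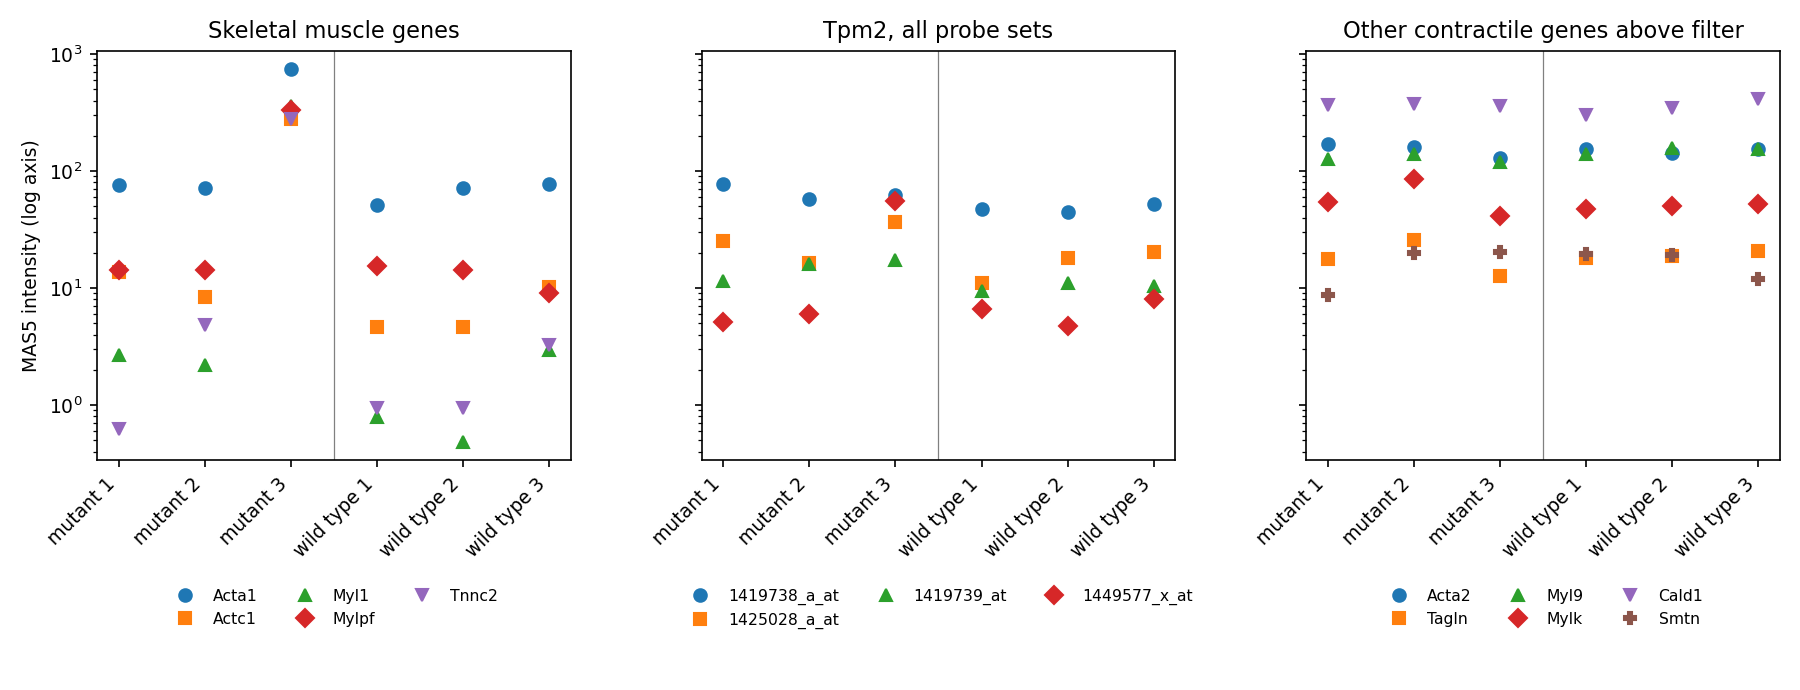
MAS5 intensity on a log axis in each mutant and wild-type array for 5 skeletal muscle genes (left), the 4 probe sets of Tpm2 (middle) and the brightest probe sets of the other contractile genes above the filter (right). Mutant array 3 stands apart for the skeletal genes, with Acta1 at 741, and for Tpm2 1449577_x_at at 55, while Acta2 is at 129 there.

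Of the 7 contractile genes above the filter, 1, Smtn, was highest in mutant array 3. Mutant array 3 minus the mean of mutant arrays 1 and 2, on the log2 scale, had a median of 0.89 over the 25 skeletal muscle genes and -0.12 over the 7 contractile genes above the filter. It was -0.32 for Acta2 on a probe set whose suffix, _s_at, marks probes common to several transcripts, and 3.08 for Acta1, the closely related skeletal actin. Tpm2 is also a gene of striated muscle, and its probe sets divided. The value was 1.72 on 1449577_x_at and 0.53 on 1425028_a_at, against 0.17 on 1419739_at and -0.079 on the brightest, 1419738_a_at. Without mutant array 3 the log2 difference of 1419738_a_at was 0.37, as large as with it. Cartilage genes moved with the muscle genes in this array. Col2a1, cartilage collagen, read 30.5, 20.2 and 141 in the mutant and 48.5, 18.6 and 32.5 in wild type, and the skin and cartilage list summed to 301, 269 and 543 in the mutant and 268 to 321 in wild type. By group, Col9a1, another cartilage collagen, had a log2 difference of 0.46, Col2a1 0.43 and the skin keratin Krt10 -0.12. Without mutant array 3, Col2a1 had -0.22 and Col9a1 0.034. The part of these transcripts in the low contractile values of mutant array 3 was not tested.

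**Figure D4:**
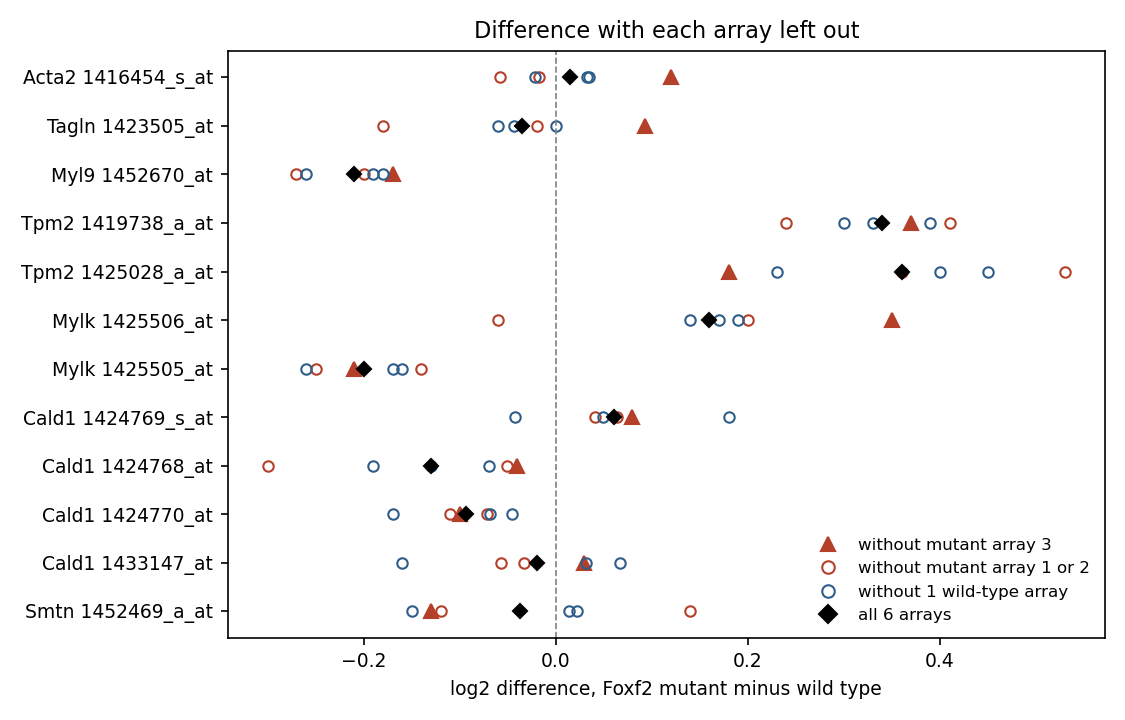
Log2 difference, Foxf2 mutant minus wild type, of the 12 contractile probe sets above the filter with all 6 arrays (diamonds) and with each array left out (circles, and triangles for mutant array 3). Tpm2 1419738_a_at stays between 0.24 and 0.41 and Myl9 between -0.27 and -0.17, while Acta2 lies between -0.058 and 0.12.

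Of 26 genes that regulate contraction or are non-muscle relatives of the members, 20 had a probe set above the filter, of which 1 rose, 0 fell and 19 did not pass by their brightest probe set, with a median log2 difference of -0.013. Of all 12573 tested genes, 25 rose and 1 fell. The one that rose was Ppp1cb, the catalytic subunit of myosin phosphatase, which removes the phosphate that Mylk adds. It read 1449, 1566 and 1723 in the mutant and 1008, 1103 and 1109 in wild type, without overlap, a log2 difference of 0.55 (limma adjusted p = 0.0311). The call was lost with any 1 array left out, with median centring, without the variance trend and with 1 probe set per gene, at adjusted p of 0.0506 to 0.151, and its difference stayed between 0.48 and 0.61 there. The other Ppp1cb probe sets had log2 differences of 0.37, 0.52 and 0.52, none past the threshold (limma adjusted p = 0.0756, 0.373 and 0.0985). Ppp1r12a, the subunit that targets this phosphatase to myosin, had log2 differences of 0.18, -0.057, -0.14 and -0.44 on its probe sets, none past the threshold. At an unadjusted p under 0.05 by limma, 2 of the 20 were higher and 1 lower, against 7.49% and 6% of all tested genes. Besides Ppp1cb these were Rhoa at 0.28 (limma adjusted p = 0.201) and Tpm4 at -0.27 (limma adjusted p = 0.154). The other Rhoa probe set above the filter had -0.08. Srf, the factor that binds the CArG box, read 139.5 in the mutant and 157 in wild type (log2 difference -0.15, limma adjusted p = 0.546). Actg2, the actin of visceral smooth muscle, averaged 14.7 in the mutant and 13.5 in wild type.

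Of 25 further smooth muscle genes, 20 lay above the filter by their brightest probe set, and 0 rose, 0 fell and 20 did not pass, and 5 had an unadjusted p under 0.05, all of them higher in the mutant. Of all 12573 tested genes, 7.49% were higher and 6% lower at that p, and nothing particular to the list was tested. The largest differences were those of Ldb3, a Z-disc protein of striated muscle too, Hspb1, a small heat shock protein that binds actin, and Nexn, an actin-binding protein. Ldb3 read 19.9, 19.2 and 42.7 in the mutant and 9.61, 12.2 and 8.26 in wild type, a log2 difference of 0.69 (limma adjusted p = 0.195), which was 0.45 without mutant array 3. Hspb1 read 90.0, 92.9 and 106 in the mutant and 64.5, 72 and 75.3 in wild type, a log2 difference of 0.38 (limma adjusted p = 0.172), while its other probe set had -0.082. Nexn had a log2 difference of 0.35 (limma adjusted p = 0.364), which was 0.23 without wild-type array 3. Mutant array 3 was the highest of the 6 arrays for 10 of these 25 genes, and the part of its striated muscle transcripts in their differences was not tested beyond the values without it. The median over the 20 was 0.076, and 0.048 without mutant array 3.

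Other cells of the vessel wall gave 0 calls as well. Of 11 pericyte markers above the filter 4 read higher and 7 lower, with a median log2 difference of -0.051, and their sum over 12 markers was 1497 to 1772 in the mutant and 1574 to 1929 in wild type. At an unadjusted p under 0.05 by limma, 0 of the 11 were higher and 2 lower, against 7.49% and 6% of all tested genes. The 2 were Atp13a5, with -0.55 on its other probe set, and Pdgfrb. Pdgfrb had -0.25 (limma adjusted p = 0.27), and -0.18 on its other probe set. The largest differences were those of Atp13a5 at -0.51, Rgs5 at -0.33 and Ndufa4l2 at 0.27, of which Rgs5 was -0.53 without wild-type array 1 and -0.22 without wild-type array 3, and Ndufa4l2 was 0.18 without mutant array 2. All 12 endothelial markers were above the filter, with a median of -0.0041, and 5 read higher and 7 lower. Their sums were 927 to 1011 in the mutant and 1102 to 1143 in wild type, which did not overlap. These sums weigh bright genes most and do not show a loss over the whole list. The largest differences in mean intensity were those of Cldn5, 278 in the mutant and 380.3 in wild type, and Kdr, 112 and 153. The difference in sums was not tested. Cldn5, a tight junction protein, had -0.43 (limma adjusted p = 0.0622), and passed the threshold with offset 1, with the 60th percentile filter and with the variance fitted after the filter, at adjusted p of 0.0443 to 0.0482. Kdr had -0.41. Cdh5 had 0.29, which was 0.10 without mutant array 3 and 0.15 without wild-type array 2. Of 12 meningeal and fibroblast genes, all above the filter, Foxc2 had 0.28, Col1a1 0.26 and Aldh1a2 0.24, and the list summed to 2482 to 3025 in the mutant, with the highest sum in mutant array 3, and 2443 to 2649 in wild type. Without mutant array 3, Foxc2 had 0.17 and Col1a1 0.082. Without wild-type array 2 they had 0.16 and 0.089, and Aldh1a2 had 0.12 without wild-type array 1. Of the cardiac genes above the filter Myh7 had -0.29, Mybpc3 0.27 and Myl3 0.19. Myh7 was -0.076 without wild-type array 1 and -0.13 without mutant array 1, and Myl3 was 0.11 without mutant array 1. Of the neuronal genes Neurod6 had 0.32, which was 0.19 without wild-type array 1, Map2 -0.19, which was -0.11 without wild-type array 3, and Snap25 0.12, which was 0.20 without mutant array 1 and 0.066 without mutant array 2. The pituitary list stood apart in wild-type array 3, and less so in mutant array 3, with sums of 63.4, 50.9 and 289 in the mutant and 72.1, 62.5 and 1990.5 in wild type. Gh, growth hormone, read 5.63, 9.57 and 203 in the mutant and 23.8, 7.47 and 1592 in wild type. Its log2 difference was -1.21, and 0.70 without wild-type array 3. Pomc, the precursor of several pituitary hormones, had -0.53, and 0.17 without that array. None of these genes passed.

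Across the 6 arrays the contractile genes did not form a tight group. Pearson correlations between the 7 genes above the filter ran from -0.78 for Myl9 with Tpm2 to 0.90 for Tagln with Mylk, and Acta2 had 0.63 with Tagln and 0.56 with Mylk. Each rests on 6 arrays that share their scaling, and is a description. Among 12566 other tested genes, those most like the mean profile of the 7 were Rassf6 (r = 0.985), Marchf4 (0.981), Fndc3a (0.980), AU023762 (0.980) and Lin7a (0.978). All 5 were highest in mutant array 2, as the contractile mean was, which comes with their selection for likeness to that mean. With 12566 genes searched over 6 arrays, correlations this high can arise without any link between the genes, and none was tested.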

How the data were processed

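RNA of 6 samples was hybridised to arrays, 1 each, after biotin labelling, per the labels' protocols. The deposited intensities are MAS5 values, per the submitters' processing notes, with no version given. Each array's trimmed mean was 100 (2% cut at each end), so values were used as deposited. Of 45101 probe sets, 64 controls were dropped. The annotation gave 34945 of the rest 1 gene, 932 several and 9160 none. Medians were 24.4 to 25.6 on mutant and 23.2 to 23.7 on wild-type arrays, and arrays correlated at 0.977 to 0.989.

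Values were taken as log2(value + 16), which understates changes of dim genes, and fitted with limma 3.58.1 in R 4.3.3 over 45037 probe sets, with a trended variance and two-sided tests. P-values were adjusted by Benjamini-Hochberg over the 27022 whose mean reached the 40th percentile. The fit was tested on simulated data. Genes in lists were read by their brightest probe set. Precision rests on 3 arrays per group, and separate litters are not stated, so p-values cover the spread between these arrays, which may be technical. Named were list genes past the threshold, otherwise the 3 with the largest absolute difference above the filter, and the 5 skeletal muscle genes with the highest excess in 1 array. Srf, Actg2, Ppp1r12a and Myocd were chosen after their values were seen, for their roles. Pdgfrb, Rhoa and Tpm4 were also named after their values were seen, for an unadjusted p under 0.05 by limma. The contractile genes and all lists were chosen with earlier results of these data known.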

Additional observations from a re-analysis of the deposited data

How the results depend on the processing

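The count of contractile probe sets past the threshold was 0, and so was that of skeletal muscle probe sets, under all 17 alternatives run with limma, among them 1 chosen after seeing the data (the variance model fitted after the filter). At an unadjusted p under 0.05 the contractile count was 0 to 4 in these settings. The count over all probe sets, 105, was 181 with offset 1, 64 with offset 64, 52 without the filter, 167 with the 60th percentile filter, 56 with median centring, 0 without the variance trend (3497 at an unadjusted p under 0.05), 12 with 1 probe set per gene, 225 with the variance fitted after the filter and 0 to 34 with 1 array left out. With the replicate number as a block it was 220, and the deviations of same-numbered arrays correlated at 0.186, 0.134 and 0.092, each array best with its own number, a hint from the data and not from the design; the block changed no contractile call. The median contractile difference of -0.027 lay between -0.066 and 0.054 with 1 array left out. It was -0.082 with median centring and -0.072 with quantile normalization. Of 12 contractile probe sets, 6 changed sign in some setting, none of them called. Acta2 turned to -0.039 with median centring. With 1 array left out, the ranges were -0.058 to 0.12 for Acta2, -0.18 to 0.093 for Tagln, -0.06 to 0.35 for Mylk 1425506_at, -0.042 to 0.18 for Cald1 1424769_s_at, -0.16 to 0.067 for Cald1 1433147_at and -0.15 to 0.14 for Smtn. They were -0.22 to 0.84 for Col2a1, -2.35 to 0.70 for Gh and -0.91 to 0.17 for Pomc. The cause was not tested. The Tpm2 1419738_a_at difference was 0.21 to 0.43 over all settings, with adjusted p of 0.23 to 0.567, and that of Myl9 was -0.27 to -0.16, with adjusted p of 0.208 to 0.577. Values of Myh11, Cnn1 and Lmod1 were limited by signal near the floor of the array.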
